A study of Homo sapiens with 36 samples.

Results

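Isoswitch cells are MDA-MB-231 cells, a human triple-negative breast cancer line, in which both isoleucine tRNA changes were combined. A CRISPR interference construct was aimed at Ile GAU, a tRNA for isoleucine whose anticodon is GAU, and an overexpression construct carried tRNAIleUAU, whose anticodon is UAU. They were compared with control cells, whose CRISPR interference construct targeted eGFP and whose overexpression construct was a control, so that cells of both groups carried both kinds of construct. The comparison used the 3 total RNA libraries of each group (A, B and C), 6 of the 36 libraries in the series, chosen by their labels.

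The other total RNA libraries came from cells with only one of the changes: UAU cells (eGFP construct and tRNAIleUAU, 3 libraries) and GAUi cells (Ile GAU construct and control overexpression, 3 libraries). All cells were treated with 100 ug/mL cycloheximide, which stalls ribosomes, for 5 min before lysis, and libraries were made from 500 ng RNA with a QuantSeq kit that reads the 3' ends of polyadenylated RNA. The labels give the source as a xenograft cell line. They do not give the promoters of the constructs, nor whether a line was 1 clone or a pool, nor whether A, B and C were grown separately. The p-values therefore rest on the spread among these libraries, which may be technical.

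Isoleucine is read from AUU, AUC and AUA codons. The tRNA with the UAU anticodon pairs with AUA, which human genes use less often, while AUU and AUC are read mainly by a tRNA whose gene carries an AAU anticodon, with its first base modified to inosine. The tRNA with the GAU anticodon is encoded by few genes. The balance of the isoleucine tRNAs can set how fast ribosomes pass these codons. The libraries read polyadenylated RNA, so the levels of the tRNAs themselves were not measured here. Every change described below is one in mRNA level as a share of the library.

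The 6 libraries held 6770763 to 7788835 counts and 15537 to 15657 detected genes, and 5.83% to 5.99% of the counts came from the top 10 genes. Markers of the line mostly fitted the label. VIM, the mesenchymal filament protein, had 2852 to 3616 CPM (counts per 1e6 counts of the library, after TMM scaling for library composition), and CD44 had 323 to 348 CPM. The hormone receptor genes ESR1 and PGR had at most 0.715 CPM. ERBB2, another receptor gene planned as a low marker, was higher than these, at 10.85 to 15.99 CPM. Pairs of replicates gave a chi-square divided by its degrees of freedom of 1.87 to 2.41 in control, 1.79 to 2.32 in isoswitch and 8.53 to 23.8 in GAUi, where 1 is pure counting noise. The GAUi libraries stand apart in this way and enter the shared estimate of the spread, so counts of called genes are given with and without them.

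Called genes are those whose adjusted p was under 0.05 in the edgeR quasi-likelihood test over the 12 total RNA libraries, with no fold minimum. Of 12357 genes tested, 494 were called (4% of those tested), 155 higher (1.25%) and 339 lower (2.74%) in isoswitch cells. For all 494 the 3 isoswitch libraries lay wholly above or below the 3 control libraries, as they did for 30.3% of all tested genes. Changes of at least 2-fold were called for 26 higher and 36 lower genes. Without the GAUi libraries 1553 genes were called, and with only the 6 libraries compared 1898 were called (15.8% of 12028 tested, 832 higher at 6.92% and 1066 lower). Single libraries were left out of the fit of 12 libraries, the one that called 494. Without control A, B or C that fit called 212, 234 and 251 genes. Without isoswitch A, B or C it called 266, 194 and 218. Without GAUi A or GAUi B the counts were 996 and 751. In all 6 fits that left out a control or isoswitch library, 152 of the 494 kept their call.

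The lower genes were concentrated on 1 chromosome, a pattern seen only after the values were examined. Of 586 tested genes on chromosome 7, 205 were called lower (34.98%) and 0 higher (edgeR and DESeq2, with 5 higher at an unadjusted p under 0.05 in each). On all other chromosomes together, 129 of 11609 positioned genes were lower (1.11%) and 154 higher (1.33%), and no other single chromosome had more than 2.65% of its genes lower. Of the lower genes with a position, 61.4% lay on chromosome 7. The median log2 fold change of its genes was -0.39, with quartiles at -0.56 and -0.26, against 0.02 for genes elsewhere and medians from -0.02 to 0.06 for the other chromosomes taken singly. In all, 550 of the 586 had a fitted value below 0.

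**Figure D1:**
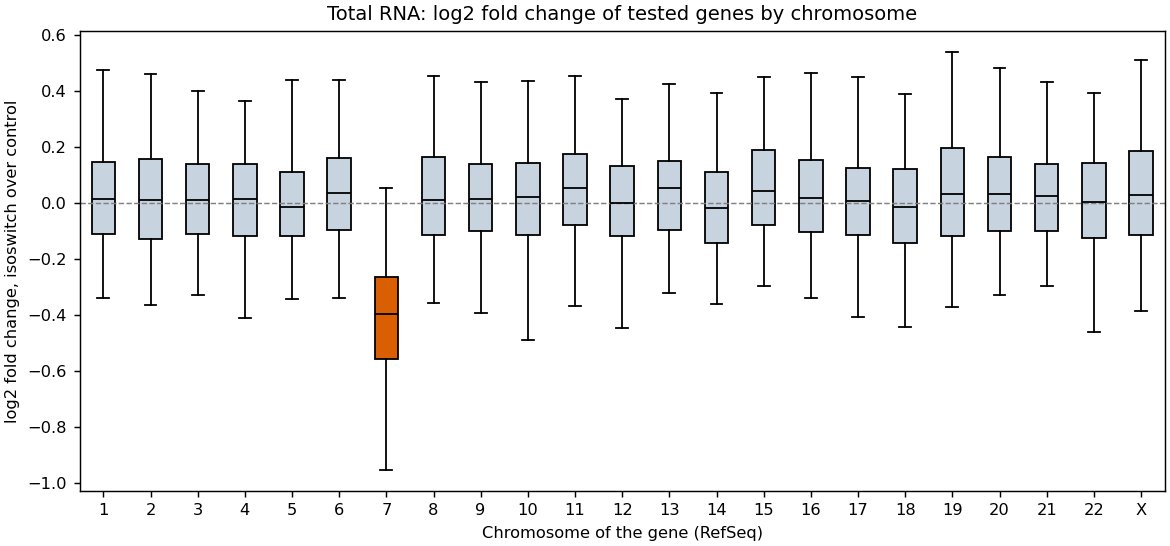
Log2 fold change of tested genes in total RNA, isoswitch over control (y axis), by chromosome of the gene (x axis). Boxes span the quartiles with the median as a line, and whiskers reach the 5th and 95th percentiles. The box of chromosome 7 lies wholly below 0, with its median at -0.39, while all other medians lie between -0.02 and 0.06.

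The shift ran along the whole chromosome. In windows of 10 Mb with at least 10 tested genes, all 16 windows of chromosome 7 had a median below 0, from -0.53 to -0.25, while the 271 windows of other chromosomes had medians from -0.23 to 0.19. It was also much the same at every level of expression. Chromosome 7 genes with an average log2 CPM under 3, from 3 to 6 and above 6 had medians of -0.40, -0.39 and -0.40, although the share called lower grew from 9.32% to 31.8% and 71.2%. Some abundant genes of the chromosome were not called, among them the actin gene ACTB (676.9 ± 35.1 CPM in control and 662 ± 34.1 in isoswitch, mean ± SD, n = 3) and the growth factor receptor EGFR (104.6 ± 6.25 and 96.3 ± 3.25 CPM, n = 3). Their adjusted p was 0.891 and 0.589, and both were picked after their values were seen.

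As a share of all counts, chromosome 7 genes gave 4.13%, 4.14% and 4.10% in control A, B and C. In isoswitch A, B and C they gave 3.10%, 3.10% and 3.11%. From control to isoswitch the share dropped by 24.7%, with no overlap between the groups (exact two-sided permutation test, p = 0.1, the smallest that 3 against 3 libraries allow). Each isoswitch library showed it alone: the median log2 ratio to the control mean over 425 chromosome 7 genes was -0.39, -0.40 and -0.39, against 0.01, 0.01 and 0.01 over 8581 other genes, with 1 CPM added to each level.

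The single-change lines were read against the same control libraries, so their values are given side by side. GAUi libraries gave 3.08%, 2.99% and 3.09% of their counts from chromosome 7, and UAU libraries 4.17%, 4.09% and 4.11%. Against control, 240 chromosome 7 genes were lower in GAUi (median -0.40, where 5.72% of all tested genes were lower) and 2 in UAU (median -0.01, 0.566% of all). Isoswitch against GAUi gave 0 called genes on chromosome 7 with edgeR (median -0.01, with 30 higher and 36 lower at an unadjusted p under 0.05) and 3 with DESeq2. Isoswitch against UAU gave 188 lower (median -0.40, 2.2% of all tested genes being lower). The lower share therefore went with the lines that carried the Ile GAU construct, in every one of their libraries. The labels do not say whether these lines came from a shared parent population. The construct and the origin of the lines cannot be told apart here.

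**Figure D2:**
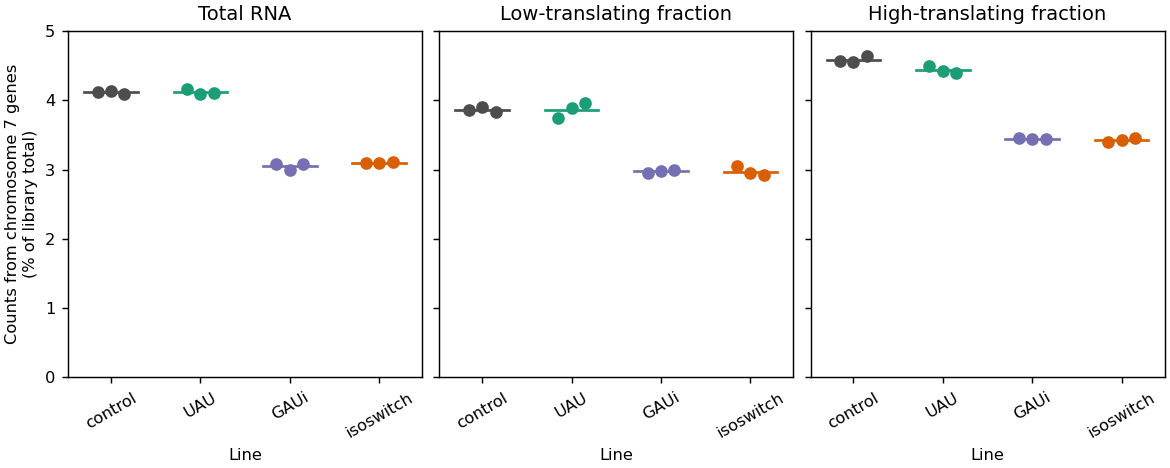
Share of each library's counts that came from chromosome 7 genes, in percent of the library total (y axis), for the 4 lines (x axis) in total RNA and in the low- and high-translating fractions. Each point is 1 library and each line a mean of 3. Isoswitch and GAUi libraries lie near 3% and control and UAU libraries near 4% in total RNA.

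The low- and high-translating fractions are separate libraries of the same lines, made after polysome fractionation, which parts mRNAs by how many ribosomes they carry. Chromosome 7 gave 3.87% ± 0.0388 of the counts in control and 2.97% ± 0.0698 in isoswitch in the low fraction, and 4.59% ± 0.0498 and 3.43% ± 0.0338 in the high fraction (SD, n = 3). Of its tested genes, 122 of 589 were lower in the low fraction and 268 of 568 in the high fraction, against 1.62% and 7.36% of all tested genes. Higher calls numbered 0 in either with edgeR and with DESeq2 (2 at an unadjusted p under 0.05 in each). Over the alternative fits of total RNA the median of chromosome 7 stayed between -0.41 and -0.38. The count of its lower genes was 86 to 121 when a control or isoswitch library was left out (104 without control A, 114 without B, 113 without C, 121 without isoswitch A, 86 without B, 100 without C), 328 without the GAUi libraries and 348 with only the 6 libraries, where 8.86% of all tested genes were lower. DNA was not measured here. In these bulk samples fewer cells of a kind and less RNA per cell cannot be told apart, for chromosome 7 or for any gene below.

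Because of this shift, the genes with the lowest log2 fold changes are given by position. Among the 20 lowest called genes whose average log2 CPM was 3 or more, 12 lay on chromosome 7, and of the 20 highest none did. PON2, a lactonase that limits oxidative damage to lipids (chromosome 7, 95404862 to 95435028), had 21.8, 19.3 and 22.7 CPM in control and 6.04, 5.78 and 5.00 CPM in isoswitch. It fell by 1.92 on the log2 scale (SE 0.14, adjusted p = 1.41e-07), further than the chromosome's lower quartile of -0.56. In the single-change lines PON2 had 7.69 ± 0.193 CPM in GAUi and 20.98 ± 1.37 CPM in UAU (n = 3).

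INSIG1, which retains the sterol-sensing transcription factors in the endoplasmic reticulum (chromosome 7, 155297878 to 155310235), had 310.5, 300.3 and 314 CPM in control and 145, 138 and 138 CPM in isoswitch. Its libraries did not overlap, as the rule that named it required, and it fell by 1.14 (SE 0.08, adjusted p = 6.09e-08). UAU cells, whose chromosome 7 share was that of control, had 138, 131 and 129 CPM of INSIG1, so that this gene was low in all 3 modified lines. CLDN4, a tight junction claudin (chromosome 7, 73830996 to 73832690), had 52.8, 64.1 and 54.8 CPM in control and 28.1, 23.4 and 30.3 CPM in isoswitch (log2 fold change -1.07, SE 0.13, adjusted p = 4.29e-05). In UAU cells CLDN4 had 62.3 ± 2.61 CPM and in GAUi cells 22.4 ± 3.98 CPM (n = 3).

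IGFBP1, a binding protein of insulin-like growth factors, fell from 24.5 ± 1.81 to 11.4 ± 1.32 CPM (n = 3, -1.10, adjusted p = 0.000826). SLC35B4, a nucleotide sugar transporter of the Golgi, fell from 64.0 ± 3.15 to 32.04 ± 3.21 CPM (-0.997, adjusted p = 5.04e-06). SKAP2, an adaptor in integrin signalling (-0.95), CCZ1, part of a complex for late endosome maturation (-0.96), ADCK2 (-0.95), LFNG, a glycosyltransferase that modifies Notch receptors (-0.93), C7orf60 (-0.98), KIAA1147 (-0.90) and WBSCR22, a methyltransferase for ribosomal RNA (-1.07), make up the rest of the 12. CCZ1 has a near-identical copy, so its reads are uncertain. All 12 kept their call in each fit that left out 1 control or isoswitch library.

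Chromosome 7 also held the 4 most abundant lower genes. RAC1, a small GTPase of actin remodelling, had 1258, 1160 and 1289 CPM in control and 975, 921 and 937 CPM in isoswitch, a fall of 0.39 (SE 0.07, adjusted p = 0.00286). CAV1, the coat protein of caveolae, fell from 1358 ± 55.7 to 1052 ± 55.0 CPM (n = 3, -0.37, adjusted p = 0.00312). Both values lie near the median of the chromosome. CHCHD2, a mitochondrial protein, and CBX3, a heterochromatin protein, fell by 0.55 and 0.53 (adjusted p = 0.0131 and 0.0146). Their calls did not hold in 5 of the 6 fits without a library: only without control C for CHCHD2 and without control A for CBX3 were they called, and adjusted p reached 0.0779 and 0.0775.

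Off chromosome 7, the lowest gene was GPRC5C, an orphan receptor induced by retinoic acid (chromosome 17, 74432088 to 74451658). It had 28.4, 24.1 and 28.1 CPM in control and 6.599, 7.58 and 9.86 CPM in isoswitch, a fall of 1.75 (SE 0.15, adjusted p = 9.96e-07). UAU cells lay between, at 13.3, 12.7 and 12.5 CPM, and GAUi cells at 8.46, 7.12 and 7.30 CPM. S100A4, a calcium-binding protein linked to cell motility (chromosome 1, 153543621 to 153545806), had 902, 896 and 849 CPM in control and 284, 291 and 311 CPM in isoswitch (-1.58, SE 0.10, adjusted p = 2.9e-08). UAU cells had 995, 842 and 929 CPM of S100A4, overlapping control, and GAUi cells 183, 205 and 255 CPM. Of the 10 tested genes of the S100 family S100A4 was the only one called, and the family's median was 0.09, against 0.01 over all genes tested.

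DDIT4, which holds back the growth kinase complex mTORC1 under stress (chromosome 10, 72273924 to 72276036), had 118, 112 and 123 CPM in control and 58.3, 55.1 and 60.9 CPM in isoswitch (-1.02, SE 0.10, adjusted p = 3.37e-06). LYPD1, a membrane-anchored protein that binds nicotinic receptors, fell from 12.6 ± 1.19 to 5.51 ± 0.568 CPM (n = 3, -1.18, adjusted p = 0.000376). NINJ2, an adhesion protein (-0.97), METTL7A (-0.89), KMO, an enzyme of tryptophan breakdown (-0.86), and SLCO4A1, an organic anion transporter (-0.75), fell as well. These 6 genes kept their call in every fit without 1 control or isoswitch library. SLCO4A1 had 186, 192 and 196 CPM in control and 111, 110.3 and 121 CPM in isoswitch, and its antisense neighbour SLCO4A1-AS1 (-0.90) shares the locus. Since the strand used in counting is not given, the pair cannot be told apart. The lowest 20 off chromosome 7 were taken as a second group after the values were seen.

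The group held 8 genes that lost their call in at least 1 such fit, with adjusted p of up to 0.19: IFIT1, described with the interferon genes, EEF1A2, a tissue-restricted elongation factor (-1.04), IQSEC2 (-0.86), BCL3, a cofactor of NF-kB (-0.78), GPR39, a zinc-sensing receptor (-0.77), SLCO4A1-AS1, ZASP (-0.74) and the metalloprotease ADAM12 (-0.73).

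Among called genes whose average log2 CPM was 3 or more, CDH11 had the highest fold change. CDH11, a mesenchymal cadherin (chromosome 16, 64943753 to 65123744), had 2.67, 2.22 and 3.43 CPM in control and 13.3, 14.8 and 16.6 CPM in isoswitch. It rose by 2.41 on the log2 scale (SE 0.23, adjusted p = 3.37e-06), a 5.32-fold difference. PTK7, a receptor of non-canonical Wnt signalling (chromosome 6, 43076314 to 43161715), had 4.504, 6.22 and 6.73 CPM in control and 19.7, 21.96 and 20.9 CPM in isoswitch (1.84, SE 0.20, adjusted p = 1.95e-05). No control library reached the lowest isoswitch library for either gene, as the rule that named them required. In UAU cells CDH11 had 1.83 ± 0.389 CPM and PTK7 6.24 ± 0.890 CPM, and in GAUi cells 11.5 ± 3.20 and 22.1 ± 6.46 CPM (n = 3).

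KRTAP2-3, a keratin-associated protein, had 2.81, 3.11 and 3.16 CPM in control and 11.2, 9.25 and 11.7 CPM in isoswitch (1.82, SE 0.20, adjusted p = 1.47e-05). Here UAU cells, at 5.64 ± 0.516 CPM, lay between control and isoswitch (log2 fold change to control 0.89, adjusted p = 0.056). CPM, the gene of carboxypeptidase M and not the unit, rose by 1.03 (SE 0.17, adjusted p = 0.00104), from 6.92 ± 0.704 to 14.2 ± 2.77 (n = 3). CD274, the gene of PD-L1, a ligand that dampens T cells, went up from 8.45 ± 1.17 to 16.2 ± 2.20 CPM (n = 3, 0.93, adjusted p = 0.0013), and SERINC2, a membrane protein, from 38.9 ± 4.11 to 68.1 ± 6.23 CPM (0.81, adjusted p = 0.00103).

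**Figure D3:**
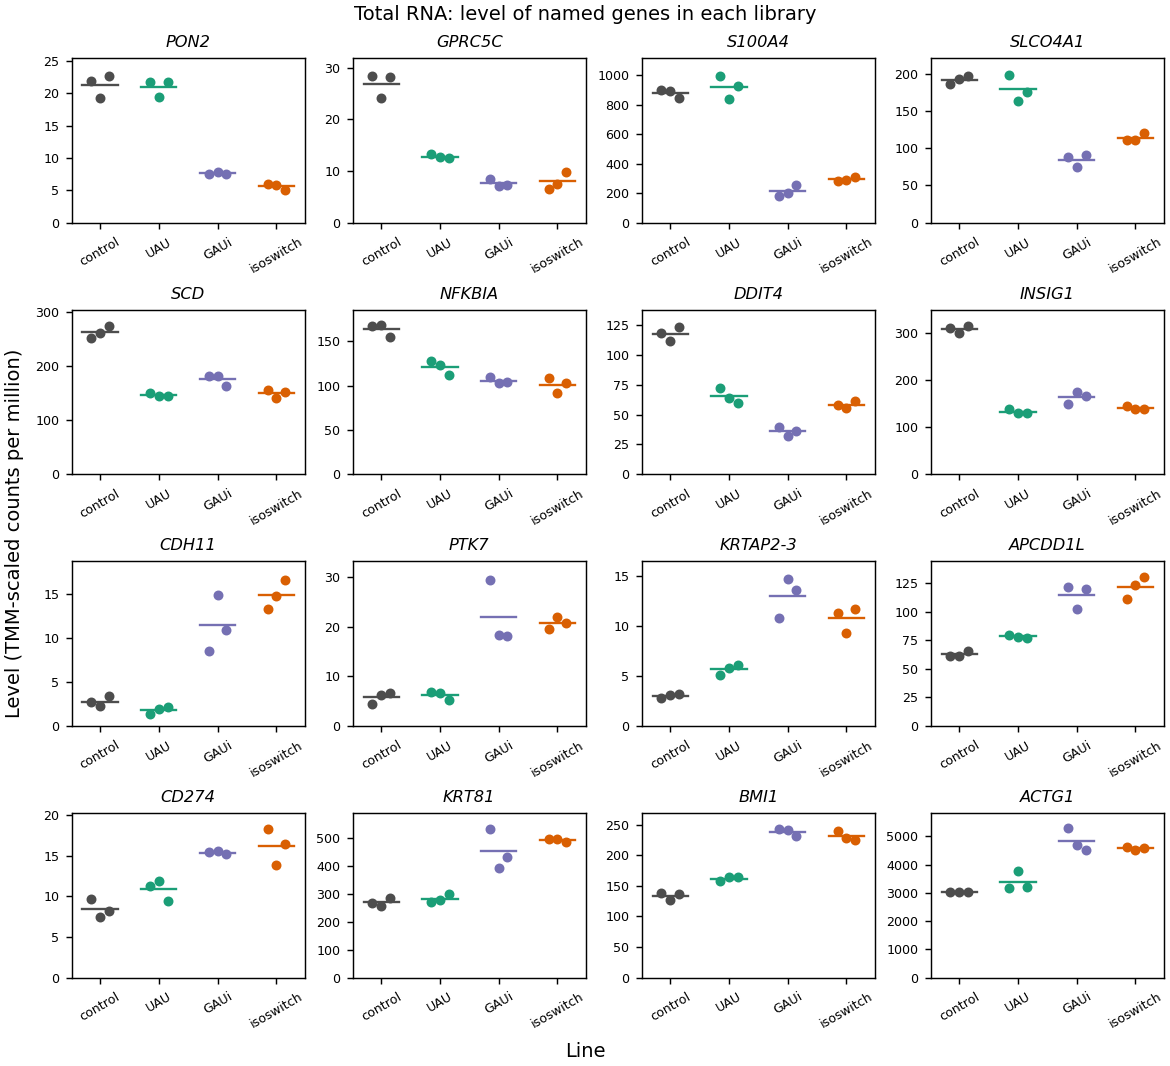
Level of 16 named genes in each of the 12 total RNA libraries, in CPM (y axis, each from 0), by line (x axis). Points are libraries and lines are means of 3. S100A4 and PTK7 in UAU cells overlap control, while INSIG1 and SCD are low in all 3 modified lines.

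APCDD1L, related to a Wnt inhibitor, had 60.9, 61.2 and 65.8 CPM in control and 110.9, 123 and 130.1 CPM in isoswitch (0.95, SE 0.09, adjusted p = 3.37e-06). Its antisense partner APCDD1L-AS1 (1.01) is uncertain for the same reason of strand. COL27A1, a fibrillar collagen, rose from 15.1 ± 2.64 to 25.7 ± 0.876 CPM (n = 3, 0.76, adjusted p = 0.00524). The other named genes that rose, FOXF2 (0.78), LCP1 (0.78), PPARD (0.78), MGC12916 (0.77), SIPA1L3 (0.75) and PLAT, the tissue plasminogen activator (0.75), each lost their call in at least 3 of the 6 fits without a library. Their adjusted p reached 0.298, the highest being that of PPARD. Among abundant genes, ACTG1, a cytoskeletal actin, had 3018, 3044 and 3035 CPM in control and 4641, 4536 and 4583 CPM in isoswitch (0.60, adjusted p = 7.33e-05). MT2A, a zinc-binding metallothionein, rose from 3515 ± 205 to 5285 ± 142 CPM (n = 3, 0.59, adjusted p = 0.000247). LGALS1, a galectin, rose by 0.30 (adjusted p = 0.0474) but was not called without any one control or isoswitch library (0.0547 to 0.24).

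A short stretch of chromosome 10 held neighbouring genes that rose together. BMI1, a Polycomb repressor (chromosome 10, 22321099 to 22331706), had 139, 127 and 136 CPM in control and 239, 229 and 225 CPM in isoswitch (0.78, SE 0.07, adjusted p = 3.37e-06). COMMD3-BMI1, a readthrough gene, had nearly the same values because it shares BMI1's 3' end. Its neighbours COMMD3 (0.58, adjusted p = 0.00241) and DNAJC1, an endoplasmic reticulum chaperone (0.53, adjusted p = 0.00156), rose too, while the next tested genes outward, MLLT10 (-0.03) and PIP4K2A (-0.07), were not called. In GAUi the log2 fold changes against the same control were 0.83 for BMI1, 0.52 for COMMD3 and 0.59 for DNAJC1, and in UAU 0.27, 0.07 and 0.05. The neighbours were picked after their values were seen.

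Gene lists were compared by how many of their tested members were called and by their median, beside 4% of genes called and a median of 0.01 over all genes tested. Over all 40 lists, 901 different genes were tested, of which 31 rose and 46 fell. Of the 46, 15 lay on chromosome 7, where only 36 of the 901 genes lie. In 7 of the 24 lists with a lower member, every lower member was on chromosome 7. Lists were therefore also read without that chromosome, where 1.33% of tested genes were higher and 1.11% lower.

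**Figure D4:**
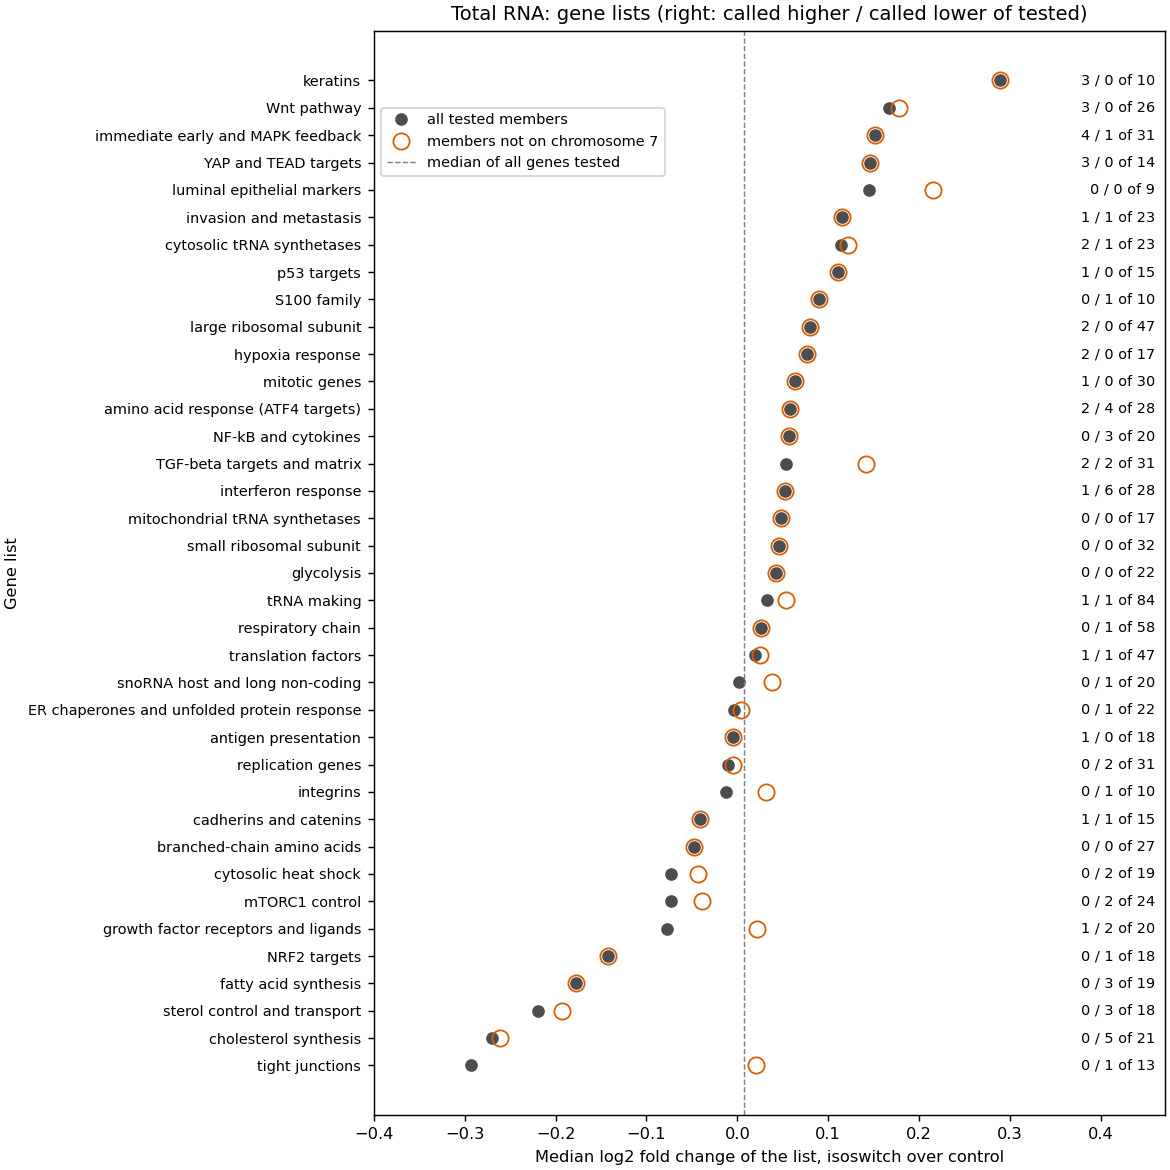
Median log2 fold change in total RNA, isoswitch over control (x axis), for each gene list with at least 9 tested members (y axis). Filled points use all tested members, open circles those not on chromosome 7, the dashed line is the median of all genes tested, and the numbers give members called higher, called lower and tested. The median of tight junction genes is -0.29 with chromosome 7 and 0.02 without it, while that of cholesterol synthesis is -0.27 and -0.26.

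Lipid genes had the lowest medians off chromosome 7. Of 21 tested enzymes of cholesterol synthesis 5 fell and 0 rose (median -0.27), and 20 of the 21 had a fitted value below 0. Without CYP51A1, the only one on chromosome 7, 4 of 20 fell and the median was -0.26. HMGCS1, which makes the precursor of mevalonate, had 48.4, 54.8 and 63.4 CPM in control and 35.4, 32.6 and 37.5 CPM in isoswitch (-0.66, SE 0.12, adjusted p = 0.00217). CYP51A1, which removes a methyl group from lanosterol, fell from 101.5 ± 3.596 to 61.3 ± 4.74 CPM (n = 3, -0.73, adjusted p = 0.000564). These 2 kept their call without any control or isoswitch library. MSMO1 (-0.51), EBP (-0.35) and FDFT1, the squalene synthase (-0.35), did not, with adjusted p of up to 0.185. Against the same control libraries, 4 of the 21 fell and 0 rose in UAU (median -0.24, 0.566% of all tested genes lower). GAUi gave the same counts (median -0.22, 5.72% of all lower). In the low fraction 1 of 20 was called lower in isoswitch (median -0.30, 1.62% of all), and in the high fraction 5 of 21 (median -0.27, 7.36% of all).

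Among 18 genes of sterol control and transport 3 fell and 0 rose (median -0.22, and -0.19 for the 17 off chromosome 7). INSIG1, described above, was among them, and 2 of the 3 kept their call without any control or isoswitch library. With only the 6 libraries 7 of the 18 were lower.

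Fatty acid synthesis had 3 of 19 members lower and 0 higher (median -0.18, none on chromosome 7). SCD, the desaturase that makes monounsaturated fatty acids, had 253, 261 and 276 CPM in control and 156, 141 and 152 CPM in isoswitch (-0.81, SE 0.08, adjusted p = 3.37e-06). FADS1, another desaturase (-0.43), and LPIN1, a phosphatidate phosphatase (-0.60), passed with all libraries and lost their calls in 5 and 4 of the 6 fits without one. A sterol response element written as TCACNCCAC was sought on either strand of RefSeq promoter windows around gene starts (GRCh38.p14). It was in 0 of 16 windows for tested cholesterol genes, 1 of 15 for sterol control and 0 of 18 for fatty acid synthesis. Of all 35116 promoters 1.13% held it. At so low a share, windows this few cannot tell these lists from all promoters. Other spellings of the element were not searched.

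Neither isoleucyl-tRNA synthetase gene was called. IARS, the cytosolic isoleucyl-tRNA synthetase, had a log2 fold change of 0.26 (62.6 ± 2.04 CPM in control, 75.03 ± 4.89 in isoswitch, n = 3, adjusted p = 0.256), and IARS2, its mitochondrial counterpart, of -0.26 (57.0 ± 7.22 and 47.7 ± 5.81 CPM, adjusted p = 0.249). Of 23 cytosolic synthetase genes 2 rose and 1 fell (median 0.11). TARS, the threonyl synthetase, had 627, 651 and 637 CPM in control and 789, 817 and 779 CPM in isoswitch (0.32, adjusted p = 0.00775), a call lost without control A or isoswitch B (adjusted p of up to 0.0638). EPRS, for glutamate and proline (0.40), lost its call without any library (0.0796 to 0.155), and the lower member was AIMP2, a scaffold of the synthetase complex on chromosome 7 (-0.43, adjusted p = 0.00271). None of 17 mitochondrial synthetases and none of 27 genes of branched-chain amino acid use was called by edgeR, with medians of 0.05 and -0.05. At an unadjusted p under 0.05 there were 1 and 6, with DESeq2 0 and 0, and in the fit of 6 libraries 1 and 4.

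Of 84 genes that make or modify tRNAs, 1 rose and 1 fell: TRMT10C, a methyltransferase and part of mitochondrial RNase P (0.40, adjusted p = 0.0326, and up to 0.153 without a library), and POP7, a subunit of nuclear RNase P and MRP on chromosome 7 (-0.56, adjusted p = 0.00347). The small ribosomal subunit had 0 of 32 called by edgeR (median 0.05, 1 at an unadjusted p under 0.05, 0 with DESeq2 and 5 with the 6 libraries alone), the large subunit 2 of 47 higher (RPL28 among them, median 0.08) and translation factors 1 of 47 higher (EIF4A2) and 1 lower (EIF3B, chromosome 7). The calls of RPL28, EIF4A2 and EIF3B were lost without any one library. LOC389906 (log2 fold change 0.22, adjusted p = 0.65) and PRKX (0.07, adjusted p = 0.862), which lie on chromosome X near genes of the GAU tRNA, did not pass.

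Amino acid shortage normally raises genes driven by ATF4, and 28 of these were tested. Of these 2 rose and 4 fell, with a median of 0.06. NUPR1, a stress-induced chromatin protein, had 2.96, 3.998 and 3.29 CPM in control and 7.72, 6.29 and 7.004 CPM in isoswitch (1.03, adjusted p = 0.00807, 0.0601 without control A). UAU and GAUi cells had 3.76 ± 0.0635 and 3.89 ± 0.878 CPM of NUPR1 (n = 3), close to control. PSAT1, an enzyme of serine synthesis (0.41), passed in 1 of the 6 fits without a library. ATF5, a transcription factor (-0.52, adjusted p = 0.005), and SLC38A2, a transporter of small neutral amino acids (-0.41, adjusted p = 0.00413), fell in all 6. SLC7A11, the cystine transporter (-0.42), lost its call without control A or isoswitch B (up to 0.0605), and PSPH, of serine synthesis, lies on chromosome 7. Of 24 genes of mTORC1 control 0 rose and 2 fell, DDIT4 and RHEB, the GTPase that activates the complex (chromosome 7, -0.50, adjusted p = 0.00614).

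Growth signalling genes moved both ways. Of 31 immediate early and MAPK feedback genes 4 rose and 1 fell (median 0.15). MYC, a growth-promoting transcription factor, had 15.9, 16.6 and 15.7 CPM in control and 23.4, 26.1 and 25.7 CPM in isoswitch (0.64, SE 0.13, adjusted p = 0.00702) and kept its call without any library. FOSL1, an AP-1 subunit (0.37), DUSP5, a phosphatase of ERK (0.49), ZFP36L1, which binds AU-rich mRNAs (0.35), and PHLDA1 (-0.33) did not keep theirs (adjusted p of up to 0.133). Of 20 growth factor and receptor genes, HBEGF rose and EREG and IGFBP1, the last on chromosome 7, fell. HBEGF was not called without any one library (0.102 to 0.173), nor EREG without control A or isoswitch C (up to 0.104).

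Interferon response genes had 6 of 28 members lower and 1 higher (median 0.05), none on chromosome 7. IFIT2, which binds viral RNA, had 21.96, 24.1 and 19.9 CPM in control and 9.69, 12.1 and 12.6 CPM in isoswitch (-0.94, SE 0.17, adjusted p = 0.00225). BST2, which tethers virus particles, had 36.5, 37.5 and 38.0 CPM in control and 19.4, 21.1 and 26.6 CPM in isoswitch (-0.74, SE 0.14, adjusted p = 0.0034). Both kept their call without any library. The other 5 did not (adjusted p of up to 0.222): IFIT1 (-0.79), OAS2 (-1.11), OASL (-0.94) and IFIT3 (-0.54), which is a neighbour of IFIT1 and IFIT2 on chromosome 10, fell, and IFITM1, which blocks virus entry, rose (0.86). IFITM1 had 4.64, 5.03 and 3.57 CPM in control and 9.69, 7.19 and 7.15 CPM in isoswitch, without overlap. Against the same control libraries, 10 members of the list were lower and 3 higher in GAUi, and 0 were called in UAU. Of all tested genes 5.72% were lower in GAUi and 0.566% in UAU.

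Promoter stretches of 2 lower members and of the 1 higher member are shown because all carry the motif of interferon-stimulated genes, TTTC, any 2 bases, TTTC on either strand (read as GAAA, any 2 bases, GAAA from the other). Sequences are from RefSeq (GRCh38.p14), 5′ to 3′ on the strand of the gene, with the motif in capitals, at chr10:89392482-89392554 (plus strand), chr19:17405720-17405785 (minus strand) and chr11:313975-314034 (plus strand).
IFIT1: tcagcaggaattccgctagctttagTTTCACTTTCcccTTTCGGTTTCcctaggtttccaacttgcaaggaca
BST2: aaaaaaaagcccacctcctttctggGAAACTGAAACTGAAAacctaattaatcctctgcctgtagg
IFITM1: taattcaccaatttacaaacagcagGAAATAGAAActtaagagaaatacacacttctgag
The sites in BST2 overlap. On either strand the motif was in 15 of 21 matched promoters of tested interferon genes (71.4%), against 2.79% of 9892 promoters of tested genes and 3.57% of all 35116, and in all 3 matched promoters of lower members. Only 3 of the 6 lower members had a matched promoter, and at 15 of 21 for the list this does not set them apart. A match is a match of letters only. It was present in the higher member too, and in members not called by edgeR, such as ISG15 (adjusted p = 0.946) and IFI6 (adjusted p = 0.917).

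Genes of NF-kB signalling and cytokines had 3 of 20 members lower and 0 higher (median 0.06). NFKBIA, the inhibitor that NF-kB itself induces, had 168, 168 and 155 CPM in control and 109, 91.6 and 103 CPM in isoswitch (-0.70, SE 0.09, adjusted p = 7.16e-05) and kept its call without any library. CSF1, a macrophage growth factor (-0.53), and PTGES, a prostaglandin E synthase (-0.55), did not (up to 0.115). In antigen presentation only CD274 was called of 18 genes.

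Called adhesion and matrix genes went both ways, while those of the Wnt and keratin lists only rose. Over all tested Wnt members, 15 had a fitted value above 0 and 11 below. Of 26 Wnt genes 3 rose and 0 fell (median 0.17), PTK7, APCDD1L and DKK1, a secreted Wnt inhibitor (78.1 ± 6.92 to 120.1 ± 6.32 CPM, n = 3, 0.62, adjusted p = 0.00413), and all 3 kept their call without any library. Of 10 genes of the keratin list 3 rose and 0 fell (median 0.29). The 3 were the keratins KRT81 and KRT86 and the keratin-associated KRTAP2-3, described above. KRT81 had 268, 256 and 284 CPM in control and 497, 498 and 489 CPM in isoswitch (0.87, SE 0.09, adjusted p = 1.47e-05), and its paralog KRT86 (0.72) may share reads with it and was not called without control C (adjusted p = 0.0503). Luminal epithelial markers had 0 of 9 called by edgeR (4 at an unadjusted p under 0.05, 1 with DESeq2 and 3 with the 6 libraries alone), but their summed level was 694 to 715 CPM in control and 749.5 to 771 CPM in isoswitch, without overlap (exact permutation p = 0.1). The luminal list itself holds KRT7, KRT8, KRT18 and KRT19, so its sum is partly a keratin sum. The part of epithelial state in the keratin values was not tested.

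Of 15 cadherins and catenins CDH11 rose and DSG2, a desmoglein, fell (-0.55, not called in 5 of 6 fits without a library). Tight junction genes had 1 of 13 lower, CLDN4, and their median of -0.29 became 0.02 for the 9 members off chromosome 7. In the TGF-beta and matrix list LAMB3, a laminin chain, rose (32.6 ± 0.545 to 53.4 ± 7.60 CPM, n = 3, 0.71, adjusted p = 0.00225) and LAMB1, another chain on chromosome 7, fell (67.9 ± 4.55 to 39.0 ± 3.24 CPM, -0.80, adjusted p = 0.00188). CTGF (0.55) and BHLHE40 (-0.60) lost their calls in 4 and 5 of the 6 fits without a library. The list's median moved from 0.05 to 0.14 without chromosome 7. MMP1, a collagenase, had 0.422, 0.296 and 0.412 CPM in control and 1.97, 2.31 and 2.57 CPM in isoswitch (2.54, SE 0.45, adjusted p = 0.00224), a level of a few counts per control library. CTSD, a lysosomal protease, fell (-0.47) and ITGB4, an integrin chain, fell (-0.63), both lost in several fits without a library (up to 0.187 and 0.145).

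The remaining lists are given by their called members. YAP and TEAD targets had 3 of 14 higher and 0 lower (CTGF, AMOTL2 and F3, median 0.15, none called in all fits without a library, up to 0.254). The lower members of the replication list (MCM7 and RFC2, 2 of 31), the respiratory chain (NDUFB2, 1 of 58) and the endoplasmic reticulum chaperones (PDIA4, 1 of 22) were all on chromosome 7. NDUFB2 kept its call without any library (-0.55, adjusted p = 0.00134), while MCM7, RFC2 and PDIA4 lost theirs in 3, 5 and 5 of the 6 fits. The hypoxia list had 2 of 17 higher (BNIP3 and BNIP3L, which mark mitochondria for removal), mitotic genes 1 of 30 higher (BUB3) and p53 targets 1 of 15 higher (GADD45B). BNIP3L, BUB3 and GADD45B were not called without any one library (up to 0.1, 0.141 and 0.17), nor BNIP3 in 4 of the 6 fits. Glycolysis had 0 of 22 called by edgeR (2 at an unadjusted p under 0.05, 0 with DESeq2 and 4 with the 6 libraries alone).

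Other cell types were looked for by their markers. Fibroblast markers summed to 3.52 to 4.59 CPM in control and 3.47 to 5.90 CPM in isoswitch, with COL3A1, DCN, FAP and POSTN at 0. Leukocyte markers summed to 6.76 to 11.2 and 8.58 to 10.4 CPM, with CD3E and ITGAM at 0. Endothelial markers summed to 139 to 150.3 CPM in control and 159.9 to 173 CPM in isoswitch, without overlap (exact permutation p = 0.1). Of the 8 list members, VWF, CDH5 and CLDN5 were at 0. PECAM1, another endothelial marker, had 3.66, 4.74 and 3.98 CPM in control and 3.09, 3.47 and 3.00 CPM in isoswitch. Most of the sum came from other members, whose levels are not given here, and the source of its rise was not tested.

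How many genes separated isoswitch from GAUi cells, which differ in the tRNAIleUAU construct, depended on the libraries and the tool. The main test gave 14 called genes (0.113% of 12357), 7 higher (0.0566%) and 7 lower (0.0566%), in a fit where GAUi libraries varied most. NDRG1, a stress-induced growth suppressor, had 180 ± 5.83 CPM in isoswitch and 111 ± 10.9 CPM in GAUi (n = 3). ID3, an inhibitor of helix-loop-helix transcription factors, had 50.6 ± 4.42 and 76.8 ± 9.68 CPM (n = 3), and in UAU cells 42.8 ± 3.91 CPM. APCDD1L-AS1, TBC1D7, DDIT4 and RTKN2 were also higher, and CCDC86, NEXN, PTGDR2 and RIOK1 lower, in isoswitch. PTGDR2 overlaps CCDC86, so their reads cannot be told apart. Without isoswitch C, edgeR called 0 genes (1048 at an unadjusted p under 0.05). Without GAUi A it called 642 and without GAUi C 178, while DESeq2 called 146 with all libraries and edgeR with no filter on low counts 276. The other leave-outs gave 2 to 18.

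Isoswitch against UAU gave 423 called genes (3.42%), 151 higher (1.22%) and 272 lower (2.2%). CDH11 (3.01), PTK7 (1.74), IL7R, a cytokine receptor, ADM, a vasodilator peptide, and FAT3, a protocadherin, led the higher genes. PON2, S100A4, CLDN4, KMO and EEF1A2 led the lower. ADM had 64.1 ± 1.68 CPM in isoswitch, 30.4 ± 2.29 in UAU, 86.5 ± 5.78 in GAUi and 51.3 ± 2.17 in control (n = 3), so isoswitch lay between the 2 single changes. The interaction of both changes passed for 3 genes (0.0243% of those tested), and for 41 with DESeq2, 95 with no filter on low counts and 76 without GAUi A, 44 without GAUi B or 11 without GAUi C.

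In the polysome fractions, which are other libraries of the same cells, 321 genes were called in the low fraction (2.58% of 12445) and 1323 in the high fraction (11% of 11979). Of the 494 genes called in total RNA, 489 were tested in the low fraction, where 155 were called in the same direction and 0 in the opposite one. In the high fraction 490 were tested, with 358 called in the same direction and 0 in the opposite one. S100A4 had log2 fold changes of -1.43 and -1.77 in the low and high fractions, PON2 of -1.46 and -2.33, GPRC5C of -1.76 and -1.96, and CDH11 of 2.18 and 2.08. MT2A had 0.26 (adjusted p = 0.283) and 0.10 (adjusted p = 0.539), against 0.59 in total RNA. PTK7 had 0.78 in the low fraction (adjusted p = 0.24) and 1.76 in the high fraction. LGALS1 was called in neither fraction, and CHCHD2, CBX3, CAV1, RAC1, PHLDA1 and CTSD were not called in the low fraction. Of the lowest genes on chromosome 7 named above, IGFBP1, WBSCR22, CCZ1, ADCK2 and KIAA1147 were not called in the low fraction. C7orf60 was called in neither. BST2 had -0.09 in the low fraction (adjusted p = 0.883) and -0.65 in the high fraction, and MYC 0.12 (adjusted p = 0.915) and 0.92. Whether a fold change differs between fractions was not tested for these genes.

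**Figure D5:**
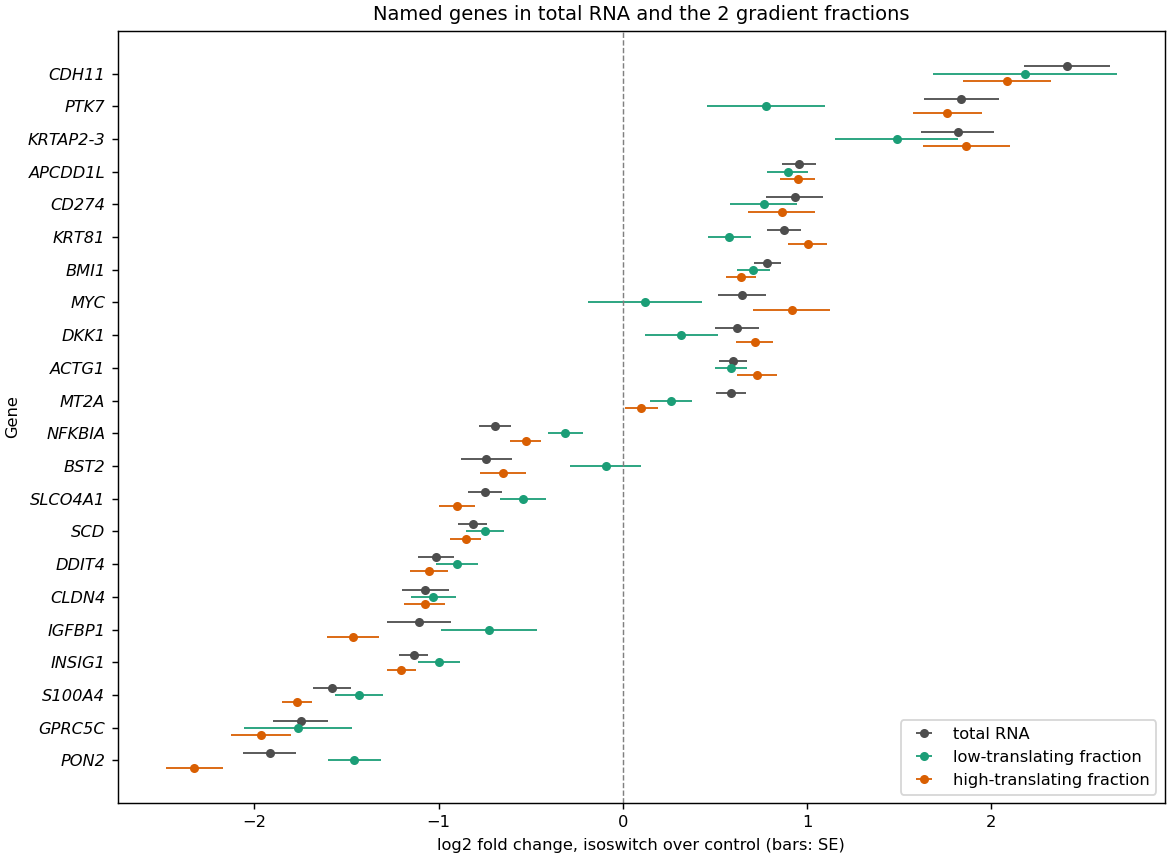
Log2 fold change of 22 named genes, isoswitch over control (x axis; bars are SE), in total RNA and in the low- and high-translating fractions. Points of most genes lie on the same side of 0 in all 3, from PON2 (-1.92 in total RNA) to CDH11 (2.41), while MT2A, MYC and BST2 lie near 0 in at least 1 fraction.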

How the data were processed

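The authors deposited raw counts per gene symbol for each library. Tools named in the submitters' processing notes are STAR, featureCounts and DESeq2, with the build hg38. The sources used here do not give versions, annotation or counting strand. Of 26485 symbols, 23758 matched RefSeq (GRCh38.p14), which gave positions and promoters, with older symbols matched through its synonyms. Of 12357 tested genes, 12195 had a position.

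Counts were filtered with filterByExpr, scaled with TMM and tested with the edgeR 4.0.16 quasi-likelihood test in R 4.3.3, two-sided, over the 12 total RNA libraries, with Benjamini-Hochberg adjustment over all tested genes. SE is the log2 fold change over the root of its F statistic. Levels are CPM, mean ± SD over 3 libraries. On simulated data of this comparison (12152 genes, changed genes above 10 CPM) log2 changes of 1 in either direction were recovered in 97.5% to 100% of cases, and of 0.5 and -0.5 in 57.5% and 70%. All simulated lines were drawn from the control means with the same spread per gene, and without a shift of a whole chromosome. The wider spread of the real GAUi libraries was thus not simulated, so recovery in the real data may differ. The labels mention no molecular identifiers, so PCR copies may be among the counts.

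Named genes were the 20 highest and 20 lowest called genes whose average log2 CPM was 3 or more and whose libraries did not overlap, the 10 most abundant called, up to 5 called per list by p, 4 by plan (IARS, IARS2, LOC389906 and PRKX), and 5 in each direction of the other comparisons. The members, lists and rule were chosen with earlier results of these data known. IFIT3 and OASL, the chromosome counts and the genes said to be picked later were chosen after the values were seen. A few genes taken by the rule are not reported here. Isoleucine codon content was not analysed here, since no coding sequences were at hand. Alternatives were DESeq2 1.42.0, other size factors, no filter, a fold minimum, the replicate block, leaving out libraries and only the 6 libraries.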

Additional observations from a re-analysis of the deposited data

Results flagged for a closer look

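The effect of UAU overexpression was compared between cells with the Ile GAU construct and cells with the eGFP construct, by an interaction term over the 12 total RNA libraries, and 3 genes passed (0.0243% of 12357, edgeR quasi-likelihood test). DDIT4 had 117 ± 5.70 CPM in control, 65.1 ± 6.30 in UAU, 35.99 ± 3.76 in GAUi and 58.1 ± 2.90 in isoswitch (SD, n = 3). The UAU effect on DDIT4 was thus downward beside the eGFP construct and upward beside the Ile GAU construct, with an interaction of 1.54 on the log2 scale (adjusted p = 1.66e-05). INSIG1 had 308 ± 7.26, 133 ± 4.40, 163 ± 12.7 and 140.4 ± 3.78 CPM in the same order, with an interaction of 1.00 (adjusted p = 0.000166). SLC48A1, a haem transporter, had 15.2 ± 0.489, 23.4 ± 2.32, 24.8 ± 1.24 and 18.2 ± 1.45 CPM, with an interaction of -1.07 (adjusted p = 0.0174). Each single change raised SLC48A1 against control, and the combination had a log2 fold change of 0.26 (adjusted p = 0.316). DDIT4 and INSIG1 kept their call without any one of the 12 libraries. SLC48A1 kept its sign, with values from -1.15 to -1.02, but was not called without any one control library, UAU A or B, or isoswitch B or C.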

How the results depend on the processing

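For isoswitch against control in total RNA, 494 genes were called. The count was 1898 with only the 6 libraries, 1904 with these and a replicate block, 1553 without the GAUi libraries and 219 at 1.5-fold or more, and 194 to 996 when 1 library was left out. Of the called genes, 31% were higher in the fit of 12 libraries and 44% in that of 6. Isoswitch against GAUi (14 called) gave 146 with DESeq2, 276 with no filter on low counts and 0 to 642 with 1 library left out. The interaction (3 called) gave 41 with DESeq2, 95 with no filter and 2 to 76 with 1 library left out. Isoswitch against UAU (423) gave 171 to 987 with 1 library left out. The low fraction (321) gave 538 with no filter and 127 to 673, and the high fraction (1323) 634 to 1333, with 1 library left out. The cause of these moves was not tested, beyond the smaller number of libraries in some fits. Control and isoswitch libraries of the same letter did not deviate together in total RNA (correlations of 0.02, 0.10 and -0.06 for A, B and C). The main fit did not pair libraries by letter. A shared origin of a letter in the other lines or in the fractions was not tested. With the letter as a replicate block the counts were 437, 14, 3, 346, 217 and 1261 for isoswitch against control, against GAUi, the interaction, against UAU, and the low and high fractions. No named gene changed sign in any alternative. Of 119 named called genes, 44 to 49 lost their call when a control or isoswitch library was left out, 11 with the block and 2 with DESeq2. Changes of 0.5 or less on the log2 scale were often missed at this depth and number of libraries.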
